A study of Oryza sativa with 12 samples.

Results

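Sucrose that reaches a developing rice seed is cleaved by 2 kinds of enzyme, and the transcripts of 5 genes that encode them were followed here in embryos: the sucrose synthases *SUS1* (Os03g0401300), *SUS2* (Os06g0194900), *SUS3* (Os07g0616800) and *SUS4* (Os03g0340500) and the cell wall invertase *GIF1* (*GRAIN INCOMPLETE FILLING 1*, Os04g0413500). The 5 genes were chosen by identifier from the 38978 genes of the count table, not by a rule on their values. Earlier results of these data were known when they were chosen. All 5 were measured in all 12 libraries. The RefSeq gene table holds 1 gene for each of the 5 symbols, on the same chromosome as the identifier in 5 of 5 cases, which is the only check of the names that was made.

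Sucrose synthase splits sucrose reversibly in the cytosol into fructose and UDP-glucose, which feeds starch and cell wall synthesis. Cell wall invertase splits sucrose irreversibly outside the cell into glucose and fructose, and keeps up the gradient along which sucrose is unloaded into sink tissue. In rice, *SUS1* is known mainly from elongating vegetative tissue, *SUS2* from many tissues, and *SUS3* and *SUS4* from the filling caryopsis, while *GIF1* is required for early grain filling.

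Polyadenylated RNA was sequenced from embryos of the *Oslec1-1* mutant at 7 days after pollination (DAP), termed the early stage (EE), and of the wild type (Nipponbare) at EE, and from embryos of both genotypes at 25 DAP, termed the late stage (LE), with 3 replicates in each of the 4 groups. *Oslec1-1* is a CRISPR/Cas9 frameshift allele of *OsLEC1*, a seed maturation regulator, in the Nipponbare background. It is 1 line, taken from homozygous T3 seeds, and part of the protein may still be made in it. All plants grew in a greenhouse with 16 h of light and 8 h of dark and nights at 24 °C, and each library was made from pooled embryos, so the *p*-values below measure the spread between pools.

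The libraries held between 16113922 and 27213238 counts on genes. The library codes of EE and LE differ, so stage cannot be told apart from a batch that these codes may mark, whereas the genotypes were compared within a stage. The make-up of the RNA also differed between the genotypes. The summed TPM (a level per transcript length, scaled to the same total in every library) of 13 identifiers listed as endosperm genes lay between 34848 and 39157 in *Oslec1* and between 2598 and 3344 in the wild type at EE, and between 125 and 747 in *Oslec1* and between 107 and 151 in the wild type at LE. For 5 identifiers listed as embryo genes the sum lay between 1094 and 1251 in *Oslec1* and between 22186 and 24577 in the wild type at EE, and between 816 and 1162 in *Oslec1* and between 3064 and 3504 in the wild type at LE. For 3 identifiers listed as green leaf genes it lay between 132 and 256 in *Oslec1* and between 9.32 and 17.9 in the wild type at EE, and between 235 and 267 in *Oslec1* and between 6.93 and 8.84 in the wild type at LE. In edgeR at EE 13 of 13 endosperm identifiers were higher in *Oslec1*, 5 of 5 embryo identifiers were lower, and 2 of 3 green leaf identifiers were higher and 1 was lower. Of all genes tested at EE, 30.3% were higher and 26.7% lower. The members did not all move together at LE, where 7 endosperm identifiers were higher and 2 lower of 10 tested, 1 embryo identifier was higher and 4 were lower, and 2 green leaf identifiers were higher and 1 did not pass. Of all genes tested at LE, 25.6% were higher and 21.3% lower. None of the 13 endosperm identifiers and none of the 5 embryo identifiers was at 0 TPM in an EE library. The lists were written from memory, and no annotation used here pairs their identifiers with names. The labelled tissue was checked against them only to that extent. The embryo list was meant to hold oleosins, VP1, Em and *OsLEC1*, the mutated gene. The identifier listed for *OsLEC1*, Os02g0725900, could not be paired with the locus that the authors give for it, so it may be another gene. It was the embryo identifier that was higher at LE, with a mean of 4.12 TPM in *Oslec1* and 1.34 TPM in the wild type. The authors report *OsABI3* and most changed *OsLEA* genes as lower in *Oslec1*, and storage products as almost absent. A lower embryo sum can thus not tell less embryo tissue from lower expression of these genes. Every difference between genotypes below stands beside these differences in the 3 sums, whose part in it was not tested.

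*SUS1* was the most abundant of the 5 transcripts at EE and *SUS4* at LE. *SUS2*, *SUS1* and *GIF1* were higher in *Oslec1* than in the wild type at both stages in edgeR's test. *SUS2* was higher by about 10.1 times at EE and 5.09 times at LE in scaled counts. In TPM with the same scaling it was higher by 6.19 times at EE and 5.74 times at LE. The calls of *SUS1* and *GIF1* at EE did not hold under every alternative. *SUS4* did not pass the test at LE, and its direction at EE depended on how the libraries were scaled. *SUS3* passed the test at neither stage with TMM scaling. *SUS1* and *GIF1* fell steeply by LE in both genotypes. With embryos sequenced in bulk, fewer cells of a type and less RNA per cell cannot be told apart.

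**Figure D1:**
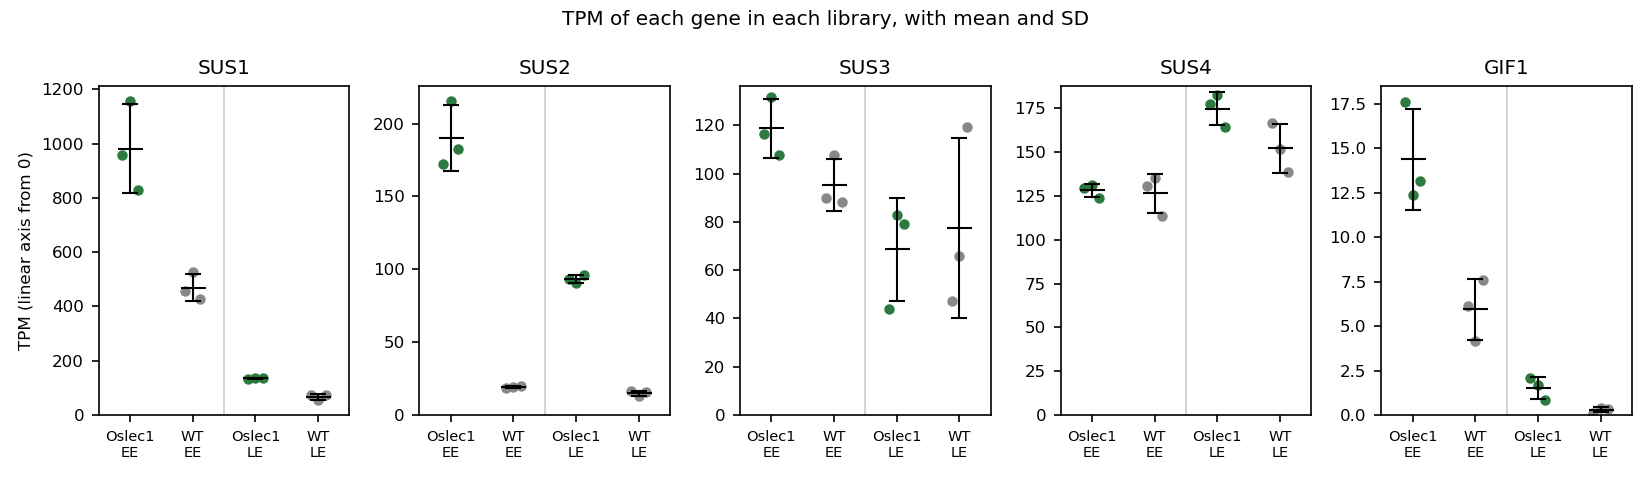
TPM of the 5 genes in the 12 libraries, on linear axes that start at 0; points are libraries, and bars are the mean and SD of the 3 replicates of *Oslec1* and wild type (WT) at EE and LE. *SUS2* in *Oslec1* reached 172 to 216 TPM at EE, against 18.8 to 19.7 TPM in the wild type, while the groups of *SUS3* overlapped within both stages.

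The gene models of the 4 sucrose synthases are overlaid by other models on the opposite strand, and the counts have to be read with this in view. In the coordinates of IRGSP-1.0, *SUS1* lies on chromosome 3 at 16301279 to 16306089, and 91.2% of its 4811 bp is covered by Os03g0401333. *SUS4* lies on the same chromosome at 12674467 to 12680655, and 76.8% of its 6189 bp is covered by Os03g0340601. *SUS2* on chromosome 6, at 4796628 to 4802509, is covered over 63.1% of its 5882 bp by Os06g0195025. *SUS3* on chromosome 7, at 25429639 to 25435132, is covered over 100% of its 5494 bp by Os07g0616750 and Os07g0616850. *GIF1* on chromosome 4, at 20422171 to 20426921, shares none of its 4751 bp with another model.

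The 4 sucrose synthases had far fewer counts than their read depth implied. The number of counts per unit of read depth (the mean number of reads over each base) was 6.98 to 7.50 for *GIF1*, close to the medians of 7.46 to 7.82 for genes of like span (4000 to 8000 bp) that no other model overlaps. It was 1.08 to 1.67 for *SUS4*, 0.621 to 1.25 for *SUS2*, 0.350 to 0.965 for *SUS1* and 0.00763 to 0.149 for *SUS3*. Genes of like span with at least 60% of it covered by other models had medians of 0.734 to 0.916. For *SUS1* the free part is 8 bp at the 5′ end and 417 bp at the 3′ end, for *SUS2* 1756 bp and 417 bp, and for *SUS4* 513 bp and 920 bp. Of the overlying models, Os03g0401333 had 0 counts in every library, Os06g0195025 had 0 to 1, Os07g0616850 had 0 to 3 and Os03g0340601 had 1 to 30. Os07g0616750, which extends past *SUS3* on both sides, had 46 to 170 counts, against 3 to 66 for *SUS3* itself. Whether the overlap lowered the counts was not tested.

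**Figure D2:**
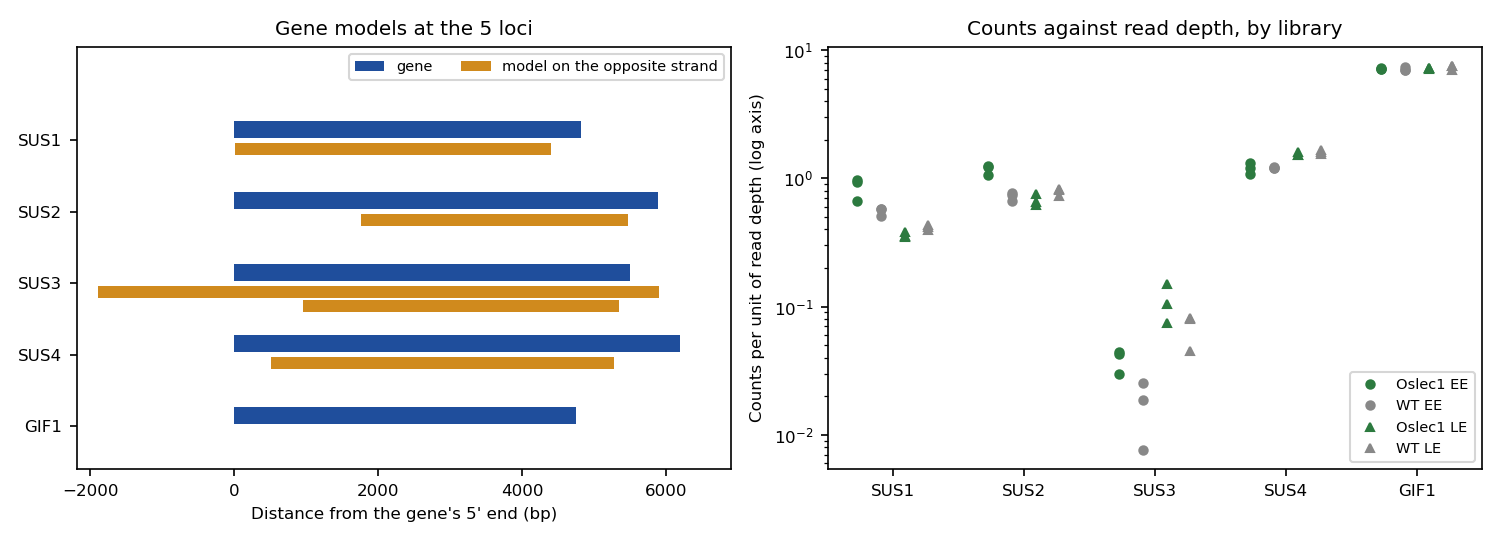
Left, span of each gene and of the models on the opposite strand, in bp from the gene's 5′ end; right, counts per unit of read depth in each library on a log axis, with EE as circles and LE as triangles. *GIF1*, with no other model on it, lies at 6.98 to 7.50, above the 4 sucrose synthases in every library.

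The test on counts (edgeR) is therefore given beside the levels per length, and beside a test by limma on FPKM (fragments scaled to transcript length and library size) divided by the same library scaling factors (TMM, which equalise the bulk of the genes). These FPKM take in the covered part of a gene, but reads of the gene and of its antisense model could not be told apart by a kit that does not mark strand. Os06g0195025, on the strand opposite *SUS2*, had 74.4 to 94.4 TPM in *Oslec1* and 6.77 to 7.75 TPM in the wild type at EE, and 31.6 to 36.0 TPM in *Oslec1* and 3.88 to 5.61 TPM in the wild type at LE. It was thus high in the same libraries as *SUS2*. The other overlying models stayed at or below 22.4 TPM.

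The first question was which of these genes differed between *Oslec1* and the wild type at EE. By edgeR's quasi-likelihood test with Benjamini-Hochberg adjustment over all genes, 4 of 5 passed at an adjusted *p* under 0.05, where 57% of the genes tested did. *SUS1*, *SUS2* and *GIF1* were higher, as were 30.3% of the genes tested, and *SUS4* was lower, as were 26.7%. In limma on TMM-scaled FPKM 3 of 5 passed, *SUS2*, *SUS4* and *GIF1*, where 55.7% of genes did. Among the 5 genes, only *SUS2* passed in edgeR with a change of at least 4-fold, as 14.8% of the genes tested did.

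*SUS2* showed the largest fold change of the 5 at EE. It had 172, 216 and 183 TPM in *Oslec1*, against 18.8, 19.4 and 19.7 TPM in the wild type. Its raw counts were 986, 927 and 982 in *Oslec1* and 61, 46 and 62 in the wild type. All 3 mutant libraries thus stood far above all wild type libraries, by a margin well beyond the replicate spread. The edgeR log2 fold change was 3.33 ± 0.13 (SE, adjusted *p* = 4.83e-08), and that of limma on TMM-scaled FPKM, as a difference of log2(FPKM + 1), was 2.60 ± 0.12 (SE, adjusted *p* = 1.02e-06). *SUS2* had 1.18 counts per unit of read depth in *Oslec1* and 0.725 in the wild type at EE, so that counts and depth over the whole length did not give the same fold.

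*SUS1* carried most of the sucrose synthase message at EE. Its TPM was 958, 1157 and 829 in *Oslec1*, against 455, 525 and 427 in the wild type. The groups did not overlap, and the counts did not either, with 4238, 3325 and 3518 in *Oslec1* and 1228, 1006 and 1019 in the wild type. The log2 fold change in edgeR was 0.99 ± 0.09 (SE, adjusted *p* = 8.68e-06). On TMM-scaled FPKM it was 0.42 ± 0.17 (SE) and missed the threshold in limma (adjusted *p* = 0.0607). TMM-scaled TPM of the groups overlapped, at 704 to 1052 in *Oslec1* and 612 to 723 in the wild type. *SUS1* had 0.857 counts per unit of read depth in *Oslec1* and 0.552 in the wild type, so that here too counts and whole length did not give the same fold.

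*SUS4* was nearly level per length at EE, with 129, 131 and 124 TPM in *Oslec1* and 131, 135 and 114 TPM in the wild type, and the groups overlapped. Its log2 fold change was -0.62 ± 0.12 (SE) in edgeR (adjusted *p* = 0.00153) and -0.61 ± 0.09 (SE) in limma on TMM-scaled FPKM (adjusted *p* = 5.34e-04). With scaling by library size alone, edgeR gave 0.057 ± 0.12 (SE, adjusted *p* = 0.677). TMM factors were 1.10 to 1.18 in the EE libraries of *Oslec1* and 0.685 to 0.745 in those of the wild type, and the median log2 fold change of all genes tested was 0.03 under TMM and 0.70 under library size alone. Relative to the bulk of the genes *SUS4* thus fell in *Oslec1*, while as a share of all transcripts its groups overlapped.

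*SUS3* could hardly be tested on counts, since only 18, 27 and 22 counts in *Oslec1* and 11, 8 and 3 in the wild type were assigned to it at EE. Its levels per length were well above 0, at 117, 132 and 108 TPM in *Oslec1* and 89.8, 108 and 88.4 TPM in the wild type. The highest wild type library and the lowest mutant library differed by less than rounding, so the groups met. The edgeR log2 fold change was 0.85 ± 0.46 (SE, adjusted *p* = 0.143), and by library size alone it passed with 1.51 ± 0.46 (SE, adjusted *p* = 0.0126). On FPKM the direction turned with the scaling, with 0.35 ± 0.11 (SE, limma adjusted *p* = 0.0173) unscaled and -0.32 ± 0.12 (SE, limma adjusted *p* = 0.0554) after TMM scaling.

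*GIF1*, the one gene of the set free of overlapping models, was the least abundant. It had 17.6, 12.4 and 13.2 TPM in *Oslec1*, against 6.11, 4.15 and 7.59 TPM in the wild type at EE, from 653, 407 and 462 counts in *Oslec1* and 208, 121 and 237 counts in the wild type. The groups did not overlap, although both were spread widely. Its log2 fold change was 0.64 ± 0.21 (SE, edgeR adjusted *p* = 0.0228), and 0.57 ± 0.21 (SE) in limma on TMM-scaled FPKM (adjusted *p* = 0.0478). The call did not hold in edgeR without wild type replicate 1 (adjusted *p* = 0.0767), without wild type replicate 2 (0.0617) or without *Oslec1* replicate 1 (0.0722), nor with the spread estimated over all 12 libraries (0.0726). By library size alone the log2 fold change was 1.33.

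**Figure D3:**
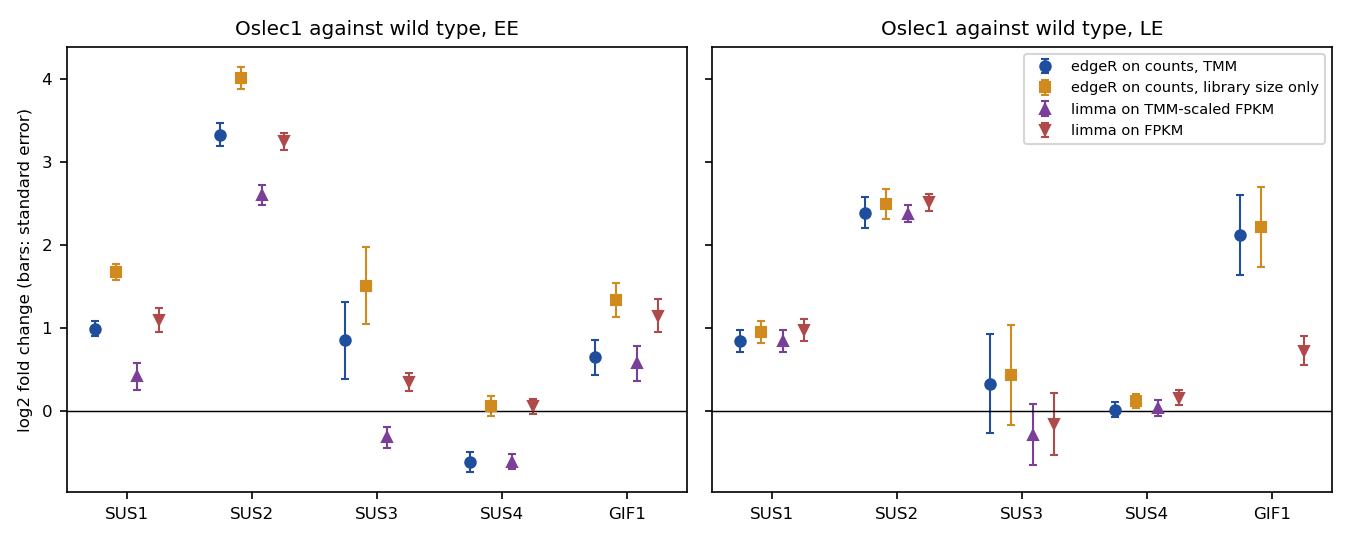
Log2 fold change of *Oslec1* against the wild type with its standard error at EE (left) and LE (right), from edgeR on counts with TMM or library size scaling and from limma on log2(FPKM + 1) with and without TMM scaling; *GIF1* was below the FPKM filter of the scaled test at LE. At EE library size scaling lifts all 5 genes, with *SUS4* at 0.057 by library size and -0.62 by TMM. At LE the scalings lie close together within a test, but edgeR and limma differ for *GIF1* and *SUS3*. There *GIF1* is at 2.12 in edgeR with TMM scaling and at 0.73 in limma on FPKM.

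The same comparison at LE asks whether the differences persisted near the end of maturation. At LE, 3 of 5 genes passed edgeR's test (adjusted *p* under 0.05), where 47% of the genes tested did. *SUS1*, *SUS2* and *GIF1* were higher in *Oslec1*, as were 25.6% of the genes tested. Both *SUS2* and *GIF1* changed by at least 4-fold, as 9.53% of genes did. In limma on TMM-scaled FPKM *SUS1* and *SUS2* passed, 2 of the 4 genes tested, where 48.4% of genes did. The median log2 fold change of all genes was 0.02 under TMM and 0.13 under library size alone, so scaling mattered less than at EE.

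*SUS2* at LE had 93.5, 90.7 and 96.3 TPM in *Oslec1*, against 16.3, 12.8 and 15.6 TPM in the wild type. The groups were again far apart, with little spread inside either. The log2 fold change was 2.39 ± 0.19 (SE, edgeR adjusted *p* = 8.98e-05) and 2.38 ± 0.10 (SE) in limma on TMM-scaled FPKM (adjusted *p* = 1.52e-05). *Oslec1* replicate 2, whose endosperm list summed to 125 TPM, had 90.7 TPM of *SUS2*. The replicates with endosperm sums of 747 and 351 TPM had 93.5 and 96.3 TPM. The wild type sums were 107 to 151 TPM, but a like sum is not a like make-up. Of the endosperm identifiers, 7 were higher and 2 lower in *Oslec1* at LE. This is a single library, and the part of endosperm RNA was not tested.

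*SUS1* at LE had 133, 138 and 136 TPM in *Oslec1*, against 72.4, 54.0 and 75.2 TPM in the wild type, and the groups did not overlap. Counts and FPKM gave almost the same change here, a log2 fold change of 0.84 ± 0.13 (SE, edgeR adjusted *p* = 0.00203) and of 0.84 ± 0.13 (SE, limma on TMM-scaled FPKM, adjusted *p* = 0.00280). Counts per unit of read depth were 0.363 in *Oslec1* and 0.413 in the wild type.

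*GIF1* at LE had few counts in the wild type. Its counts were 97, 63 and 33 in *Oslec1*, against 4, 19 and 15 in the wild type, which corresponds to 2.07, 1.67 and 0.845 TPM in *Oslec1* and 0.134, 0.417 and 0.365 TPM in the wild type. Every mutant library was above every wild type library. The log2 fold change was 2.12 ± 0.48 (SE, edgeR adjusted *p* = 0.00965). With each library left out in turn it stayed between 1.80 and 2.42 with an adjusted *p* of at most 0.0333. In limma on FPKM without TMM scaling, which understates changes of low genes, it was 0.73 ± 0.17 (SE, adjusted *p* = 0.0144). *Oslec1* replicates 1 and 3, with endosperm sums of 747 and 351 TPM, had 2.07 and 0.845 TPM of *GIF1*. Replicate 2, with the lowest endosperm sum, had 1.67 TPM, the middle value of its group. These too are single libraries, and the part of endosperm RNA was not tested.

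*SUS4* and *SUS3* showed no difference past the threshold at LE. *SUS4* had 177, 183 and 164 TPM in *Oslec1* and 167, 152 and 139 TPM in the wild type, with overlapping groups and a log2 fold change of 0.016 ± 0.093 (SE, edgeR adjusted *p* = 0.897). *SUS3* varied more between replicates than between genotypes, at 44.0, 82.7 and 79.0 TPM in *Oslec1* and 47.2, 65.8 and 119 TPM in the wild type, so that no difference was detectable at this spread. Its edgeR log2 fold change was 0.33 ± 0.60 (SE, adjusted *p* = 0.674).

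A model of all 12 libraries asked whether the effect of the mutation was the same at the 2 stages, with the effect at LE minus that at EE as the tested difference. In edgeR 3 of 5 genes passed (adjusted *p* under 0.05), where 33.4% of genes did, and 0 with at least 4-fold, where 7.97% did. *SUS4* and *GIF1* moved upward, as 16.7% of genes did, and *SUS2* downward, as also 16.7% did. The effect was smaller at LE for *SUS2*, by a log2 difference of -0.97 ± 0.22 (SE, adjusted *p* = 0.00567), and more positive at LE for *SUS4*, by 0.60 ± 0.16 (SE, adjusted *p* = 0.0106), and for *GIF1*, by 1.43 ± 0.52 (SE, adjusted *p* = 0.0490). None of these 3 differences passed under every alternative. On TMM-scaled FPKM 1 of 5 passed, where 37% of genes did. There *SUS2* gave -0.22 (limma adjusted *p* = 0.325) and *GIF1* 0.071 (limma adjusted *p* = 0.873), while *SUS4* passed with 0.64 (limma adjusted *p* = 0.00227) but gave 0.065 by library size alone (edgeR adjusted *p* = 0.741). The edgeR call of *GIF1* held without wild type EE replicate 2 (adjusted *p* = 0.0298), *Oslec1* EE replicate 1 (0.0484) or *Oslec1* LE replicate 3 (0.0151), and was lost without any one of the other libraries, with values from 1.12 to 1.72 over all omissions. For *SUS1* (-0.18 ± 0.13, SE, adjusted *p* = 0.341) and *SUS3* (-0.54 ± 0.85, SE, adjusted *p* = 0.658) edgeR found no difference past the threshold with TMM scaling. By library size alone the difference of *SUS1* passed, with -0.72 ± 0.14 (SE, edgeR adjusted *p* = 0.00124), where the median of all genes was -0.59, against -0.04 under TMM.

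The change of each gene between the stages was then followed within a genotype. In *Oslec1*, 4 of 5 genes differed between LE and EE in edgeR (adjusted *p* under 0.05), where 59.1% of genes did, and in the wild type 3 of 5, where 58.4% of genes did. *SUS1*, *SUS2* and *GIF1* were lower at LE in both genotypes, as were 29.1% of genes in *Oslec1* and also 29.1% in the wild type. *SUS4* was higher at LE in *Oslec1*, as were 30% of genes. *SUS1* and *GIF1* passed with at least 4-fold in both genotypes, 2 of 5 genes, where 11.1% of genes did in *Oslec1* and 13.2% in the wild type. In limma on TMM-scaled FPKM 5 of 5 passed in *Oslec1*, where 59.3% of genes did, and 5 of 5 in the wild type, where 57.9% did. Both comparisons carry the confounding of stage with library code, and the endosperm sum was also lower at LE in both genotypes, by values given above. Its part in the changes was not tested.

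*SUS1* fell by 4.10 on the log2 scale in *Oslec1* (SE 0.09; edgeR adjusted *p* = 1.50e-07) and by 3.94 in the wild type (SE 0.12; adjusted *p* = 5.30e-07). In mean TPM that was 135 ± 2.09 at LE against 981 ± 165 at EE in *Oslec1*, and 67.2 ± 11.6 at LE against 469 ± 50.7 at EE in the wild type (SD, n = 3 each). With the same TMM scaling, the ratio of means was smaller in TPM than in counts. It was 7.29 against 17.1 in *Oslec1* and 10.2 against 15.1 in the wild type. In TPM without TMM scaling it was 7.24 in *Oslec1* and 6.98 in the wild type. The counts per unit of read depth of *SUS1* were also lower at LE.

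*GIF1* fell by 3.34 on the log2 scale in *Oslec1* (SE 0.27; edgeR adjusted *p* = 2.17e-05) and by 4.78 in the wild type (SE 0.37; adjusted *p* = 1.30e-05). Its mean was 1.53 TPM at LE against 14.4 TPM at EE in *Oslec1*, and 0.306 TPM at LE against 5.95 TPM at EE in the wild type. No library of one stage reached the range of the other.

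*SUS2* fell less, by 1.90 on the log2 scale in *Oslec1* (SE 0.12; edgeR adjusted *p* = 4.63e-06) and by 0.93 in the wild type (SE 0.24; adjusted *p* = 0.00883). The decrease in the wild type did not pass by library size alone, with a log2 fold change of -0.36 (adjusted *p* = 0.192). The median of all genes between the wild type stages was 0.02 under TMM and 0.58 under library size alone.

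*SUS4* was the only gene of the set that rose with stage in edgeR with TMM scaling, by 0.68 on the log2 scale in *Oslec1* (SE 0.11; edgeR adjusted *p* = 8.26e-04). In the wild type its log2 fold change was 0.065 ± 0.11 (SE, edgeR adjusted *p* = 0.640). On TMM-scaled FPKM it was -0.31 in the wild type (limma adjusted *p* = 0.0339), and by library size alone 0.63 (edgeR adjusted *p* = 0.00106), so the wild type direction turned with the measure and the scaling. *SUS3* turned as well, with log2 fold changes of 0.63 ± 0.48 in *Oslec1* (adjusted *p* = 0.282) and 1.16 ± 0.60 in the wild type (adjusted *p* = 0.127) on its few counts in edgeR, and of -0.93 in *Oslec1* (adjusted *p* = 0.0105) and -0.96 in the wild type (adjusted *p* = 0.0235) in limma on TMM-scaled FPKM. By library size alone *SUS3* passed in the wild type with 1.73 (edgeR adjusted *p* = 0.0317).

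The order of the 4 groups was the same for *SUS1* and *GIF1*, highest in *Oslec1* at EE, then in the wild type at EE, *Oslec1* at LE and the wild type at LE, with no overlap of neighbouring groups in TPM. *SUS2* had another order, *Oslec1* at EE, *Oslec1* at LE, the wild type at EE and the wild type at LE, again with no overlap, so that its level in *Oslec1* at LE exceeded that in the wild type at EE. For *SUS4* the LE groups overlapped each other, as did the EE groups, and both LE groups were above both EE groups. All neighbouring groups of *SUS3* overlapped. In TMM-scaled CPM (counts scaled to library size) the order was kept for *SUS1*, *SUS2* and *GIF1* and not for *SUS3* and *SUS4*.

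The make-up of the sucrose synthase message, which no scaling between libraries can change, also differed. Of the summed TPM of the 4 genes *SUS2* made up 13.5 ± 1.12% in *Oslec1* and 2.73 ± 0.293% in the wild type at EE, and 19.8 ± 1.3% in *Oslec1* and 4.78 ± 0.517% in the wild type at LE (SD, n = 3 each). *SUS4* made up 9.13 ± 1.01% in *Oslec1* and 17.8 ± 0.881% in the wild type at EE, and 37.0 ± 2.47% in *Oslec1* and 49.4 ± 8.40% in the wild type at LE. *SUS1* kept the largest share at EE, with 69.0 ± 2.11% in *Oslec1* and 66.0 ± 0.612% in the wild type. At LE it held 28.7 ± 0.968% in *Oslec1* and 21.5 ± 2.48% in the wild type. The share of *SUS3* was 8.40 ± 0.313% in *Oslec1* and 13.4 ± 0.423% in the wild type at EE, and at LE it was 14.4 ± 3.96% in *Oslec1* and 24.3 ± 9.35% in the wild type. The sum itself was 1418 ± 199 TPM in *Oslec1* and 710 ± 70.7 TPM in the wild type at EE, and 472 ± 23.0 TPM in *Oslec1* and 312 ± 33.1 TPM in the wild type at LE. After TMM scaling the EE sums were closer, 1240 ± 223 in *Oslec1* and 987 ± 83.3 in the wild type.

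**Figure D4:**
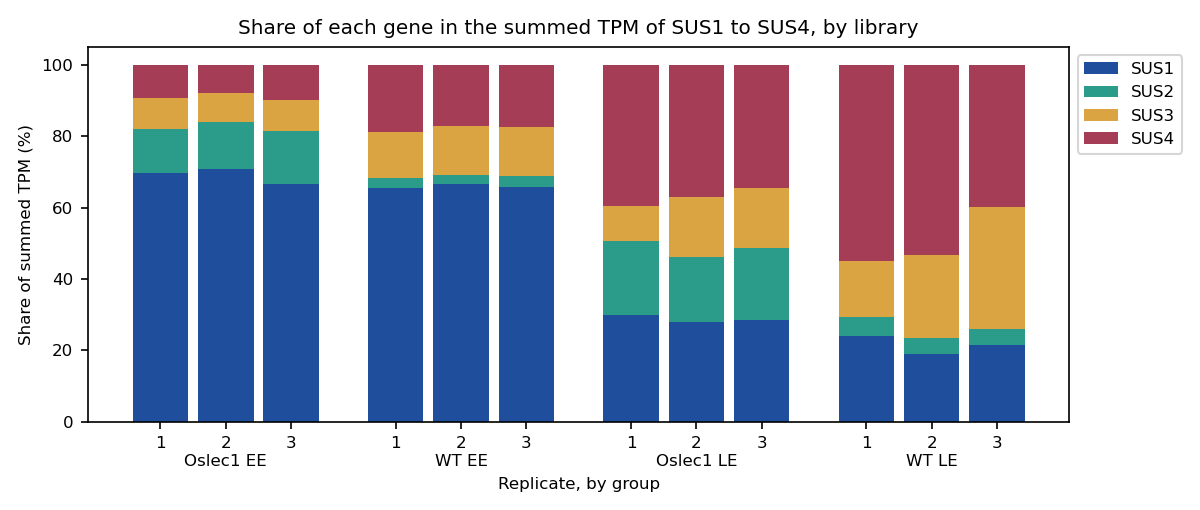
Share of each sucrose synthase in the summed TPM of the 4 genes, in percent, for the 3 replicates of each group. *SUS2* takes 13.5% in *Oslec1* and 2.73% in the wild type at EE on average, and *SUS4* becomes the largest share at LE in every library of both genotypes.

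Over the 12 libraries, *GIF1* and *SUS1* had similar profiles, with a Pearson coefficient of 0.980 in log2(TMM-scaled CPM + 1) and 0.970 in TMM-scaled FPKM. *SUS4* ran opposite to *SUS2*, with -0.79 and -0.60. These coefficients describe 12 libraries in 4 groups that share stages and library codes. The genes most like *SUS1* among all were Os03g0279816, Os08g0321000 and Os11g0523700 (coefficients of 0.994), and those most like *SUS2* were Os10g0493600 (0.994), Os07g0676900 (0.992) and Os11g0128700 (0.991). For *GIF1* they were Os01g0532800 (0.992), Os06g0726800 (0.991) and Os03g0750300 (0.990), for *SUS4* Os09g0409950 (0.963), Os05g0595400 (0.959) and Os04g0624600 (0.958), and for *SUS3*, on its few counts, Os09g0444600 (0.933), Os02g0529600 (0.926) and Os12g0503200 (0.925).

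Other steps of sucrose metabolism were followed through 32 identifiers listed for the remaining sucrose synthases and invertases, sucrose-phosphate synthases, UDP-glucose pyrophosphorylases and hexose kinases, 31 of which are in the count table. As no annotation used here pairs them with names, they are given as counts only. Those with few counts in every library were not tested, and some were tested only through the group in which they were high, so the counts describe the tested identifiers and not the lists. At EE 20 were tested in edgeR, of which 8 were higher and 4 lower in *Oslec1* and 8 did not pass, where 30.3% of all genes were higher and 26.7% lower, with a median log2 fold change of -0.13 beside 0.03 over all genes. By at least 4-fold 2 were higher and 1 was lower, where 14.8% of all genes passed in either direction. At LE 9 of 22 were higher and 5 lower, where 25.6% of all genes were higher and 21.3% lower, with a median of 0.23 beside 0.02 over all genes. By at least 4-fold 2 were higher and 0 lower there, where 9.53% of all genes passed in either direction. Between LE and EE in the wild type 6 of 20 were higher and 4 lower, where 29.3% of all genes were higher and 29.1% lower. Of 7 identifiers listed as other cell wall invertases, 2 were tested, and both were higher in *Oslec1* at both stages. With at least 4-fold it was 2 at EE and 1 at LE. However, 1 of them had a mean of 0.493 scaled counts in the wild type at EE. Of 3 listed as other sucrose synthases, 1 was tested, which was higher at EE and did not pass at LE. The 2 identifiers listed as fructokinases, which phosphorylate the fructose that both kinds of enzyme release, were higher in *Oslec1* at both stages. For all 3 lists, 30.3% of all genes were higher at EE and 25.6% at LE. Of those listed as hexokinases, 1 of 8 was higher and 3 were lower at EE, where 30.3% of all genes were higher and 26.7% lower. At LE 1 of 9 was higher and 2 were lower, where 25.6% of all genes were higher and 21.3% lower. Neither of the 2 listed as neutral or alkaline invertases passed at EE, where 57% of all genes did. Both were lower in *Oslec1* at LE, as were 21.3% of all genes.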

How the data were processed

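Embryo RNA of *Oslec1* and wild type rice was measured in 12 libraries on the Illumina HiSeq platform. The authors trimmed reads with Trimmomatic (0.36), mapped them to IRGSP-1.0 with HISAT2 (2.1.0) and deposited raw counts per gene. The counting program and its strand setting are not given in the sources used here. The authors also deposited FPKM, TPM and read coverage (signal per base) per gene, as StringTie (1.3.4d) writes them. No entry lacked a gene.

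Counts were analysed with edgeR 4.0.16 in R 4.3.3 (filterByExpr, TMM, quasi-likelihood test, Benjamini-Hochberg over all genes tested, adjusted *p* under 0.05), on the 6 libraries of each comparison and on all 12 for the interaction. SEs follow from the quasi-likelihood F. Scaled counts and CPM are divided by TMM-adjusted library size. FPKM were tested with limma 3.58.1 as log2(FPKM + 1), kept at 0.5 or more in 3 libraries, which understates changes of low genes. The test on TMM-scaled FPKM was added after seeing the data. Other alternatives were DESeq2 1.42.0, other scalings and filters, a pseudocount of 0.1, a replicate block, a limit of 4-fold, and each library left out. The fits were tested on simulated data. Tables and figures used Python 3.11.15. No 2 libraries had identical counts. The 5 genes and the lists were chosen with earlier results of these data known. Named are the 5 genes and the 3 most similar to each. Listed genes past the 4-fold limit were also to be named, but without an annotation are given as counts.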

Additional observations from a re-analysis of the deposited data

Results flagged for a closer look

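The effect of the mutation differed between LE and EE for 3 genes by the interaction of genotype and stage in edgeR, with log2 differences of -0.97 for *SUS2*, 0.60 for *SUS4* and 1.43 for *GIF1*. For *SUS2* both effects were positive and the one at LE was smaller in counts. On TMM-scaled FPKM its difference was -0.22 and did not pass (limma adjusted *p* = 0.325). For *SUS4* the difference did not pass by library size alone. For *GIF1* the difference rests on wild type LE libraries with 4, 19 and 15 counts. The call for *GIF1* lay near the threshold, and with single libraries left out its adjusted *p* ranged between 0.0151 and 0.120.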

How the results depend on the processing

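Calls of *SUS2* and *SUS1* between the genotypes kept their direction under every alternative, and only *SUS1* at EE lost its call, on TMM-scaled FPKM (0.42). Log2 values changed sign as follows. For *SUS4* at EE: 0.057 by library size alone, and in limma on FPKM 0.060 (1 added, also with all genes) and 0.061 (0.1 added). For *SUS4* elsewhere: -0.0093 at LE with 12 libraries, and -0.31 between wild type stages on TMM-scaled FPKM. For *SUS3*: -0.32 at EE on TMM-scaled FPKM, -0.16 (FPKM with 1 added, also with all genes), -0.16 (0.1 added) and -0.28 (TMM-scaled) at LE, 0.035 for the interaction (TMM-scaled), -0.42, -0.43 (0.1 added) and -0.96 (TMM-scaled) between wild type stages, and -0.93, -0.94 (0.1 added) and -0.93 (TMM-scaled) between *Oslec1* stages. For the interaction: 0.43 for *SUS1* on TMM-scaled FPKM and -0.42 for *GIF1* on FPKM with 1 added, also with all genes. The number of the 5 genes called for the interaction was 1 in each limma fit and 0 with at least 4-fold, and 5 passed between wild type stages on TMM-scaled FPKM. With at least 4-fold, 1 gene was called at EE and 2 between *Oslec1* stages. The order of groups was kept for 3 genes in TMM-scaled CPM. With each library left out, 3 to 4 genes were called at EE, 3 at LE, 2 to 3 for the interaction, 3 to 4 between wild type stages and 4 to 5 between *Oslec1* stages, and log2 values ranged from -0.13 to 0.89 (*SUS3*) and -0.054 to 0.10 (*SUS4*) at LE, from -1.01 to 0.043 for the *SUS3* interaction and from -0.025 to 0.12 for *SUS4* between wild type stages. *SUS3* passed between stages without wild type LE replicate 1 (1.52) or *Oslec1* LE replicate 1 (1.02), and by library size alone at EE (1.51) and between wild type stages (1.73). Replicate numbers are not stated to pair the samples. Correlations of deviations ran from -0.08 to 0.50 for same-numbered libraries and from -0.53 to 0.41 for others. A replicate block left the *GIF1* interaction at 1.40 (adjusted *p* = 0.0644 in edgeR), with 4, 3, 2, 3 and 4 genes called at EE, at LE, for the interaction, between wild type stages and between *Oslec1* stages. Few counts limit *SUS3* throughout and *GIF1* in the wild type at LE.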
